A study of Homo sapiens with 4 samples.

Results

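The enzymes described here salvage purine bases and nucleosides and interconvert purine nucleotides. They are encoded by 10 genes, HPRT1, APRT, PNP, ADK, GUK1, AK1, AK4, ADA, AMPD2 and AMPD3, of 18132 genes read on the arrays. Their members are the 27 probe sets listed under one of these symbols alone, and 25 of the 27 reached the floor of 63.0 in signal, the median of all non-control values, on at least 1 array. Each gene is represented by its brightest probe set, leaving aside those of the _x_at type (whose probes may bind other transcripts) where a gene has another, and all 10 of these were above the floor on all 4 arrays.

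U87MG, an established human glioblastoma cell line, was grown in medium with serum and treated for 24 h. The control received DMSO, another culture 10 µM mycophenolic acid (MPA), another 100 µM guanosine, and the last both compounds together. Total RNA of each condition was read on 1 PrimeView array, so there are 4 arrays, no replicates, no spread between cultures and no p-value, and each difference is between 2 arrays. Values are signals on a linear scale, and differences are in log2.

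MPA inhibits IMP dehydrogenase, which turns IMP toward the guanine nucleotides. Cells can go round that step through salvage. PNP splits guanosine into guanine and a ribose phosphate, HPRT1 joins guanine to PRPP (phosphoribosyl pyrophosphate) to give GMP, and GUK1 phosphorylates GMP to GDP. On the adenine side APRT makes AMP from adenine and ADK makes AMP from adenosine. ADA deaminates adenosine to inosine, the AMPD enzymes deaminate AMP to IMP, and adenylate kinases such as AK1 and AK4 balance AMP against the other adenine nucleotides.

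The glioma and mesenchymal markers VIM, CD44, NES, FN1 and SPARC were above the floor on all 4 arrays, with a summed signal, mostly VIM, between 35237 and 36059. NES, the dimmest of the 5, read 221 in the control and 142 with MPA (-0.63). Of the other marker lists, 1 of 4 astrocyte, 1 of 4 measured leukocyte, 2 of 3 epithelial, 1 of 3 endothelial, 3 of 3 neuronal and 0 of 2 measured oligodendrocyte genes reached the floor on at least 1 array at their representative probe set. A second PECAM1 probe set, of the _x_at type, read up to 78.7 and would make the endothelial count 2. The leukocyte genes PTPRC, CD3E and CD14 were below it on every array, while the summed leukocyte signal, nearly all CD68, was 1931 with MPA and between 1258 and 1396 on the other arrays. The neuronal sum, mostly SNAP25, was 2060 with MPA and between 1290 and 1396 elsewhere, and the epithelial sum was 192 with MPA and between 131 and 134 elsewhere. The astrocyte sum lay between 166 and 194, the endothelial between 112 and 144 and the oligodendrocyte between 81.1 and 89.0. All samples were cultures of the U87MG line, so these sums are not read as a mixture of cell types. The part of these signals in the differences below was not tested. Fewer cells of a type and less RNA per cell cannot be told apart in such samples. The 12 poly-A spike-in probe sets read the dap, lys, phe and thr transcripts added to RNA before labelling, so they are not independent of each other. All 12 were lower than control on the MPA array, by a log2 median of -0.29. The guanosine array read 0.22 above control there and the combined array 0.27. Scaling on them put the median of all genes at 0.30 in MPA against control and at -0.23 in guanosine against control. Which scaling is nearer the true amounts was not tested and cannot be told from these arrays. Differences are read on the deposited scaling.

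With MPA alone, some of these enzyme genes read below control and others above it. Members are counted where the brighter array stood at least 25% above the dimmer, a log2 difference of 0.32. AK4, PNP, ADK, HPRT1 and AMPD3 were lower than control by that much or more (5 of 10, where 18.6% of 10951 genes were). AK1 and ADA were higher by as much (2 of 10, against 14.8% of genes), and APRT, GUK1 and AMPD2 differed by less. In either direction 7 of 10 members passed 0.32, against 33.4% of genes, and 1 of 10 passed 1.5-fold, against 12.9%. HPRT1, ADK and AMPD3 lay close to the line of 0.32. The split of 2 higher and 5 lower became 2 and 3 with array medians aligned, against 17.9% and 15.6% of all genes. After cyclic loess it was 2 and 2, against 17.1% and 15.8%. With spike-in scaling it was 3 and 1, against 46.8% and 6.48%. The median of the 10 was -0.19, and that of all genes 0.0024.

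**Figure D1:**
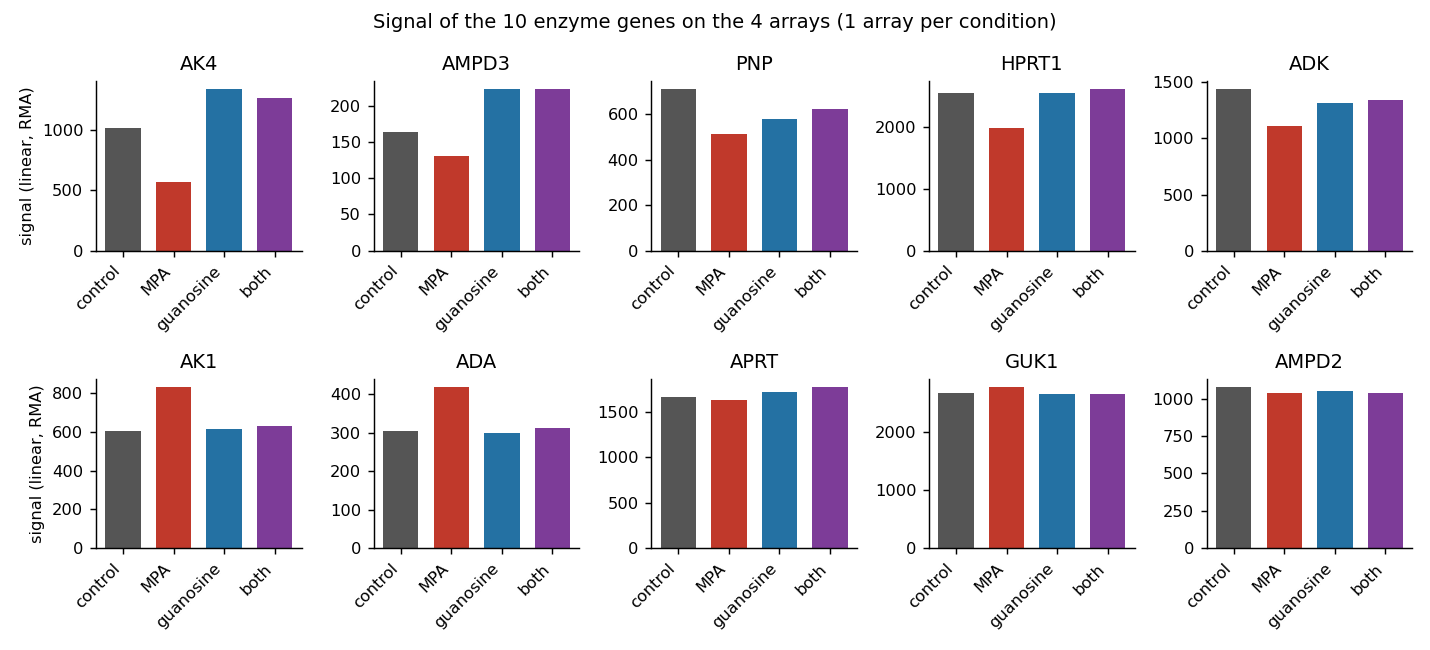
Signal of the representative probe set (vertical axis, linear, from 0) of each gene on the 4 arrays, 1 bar per array and 1 panel per gene. The MPA bar is the lowest of the 4 for AK4, AMPD3, PNP, HPRT1 and ADK and the highest for AK1 and ADA, while APRT, GUK1 and AMPD2 are nearly level.

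**Figure D2:**
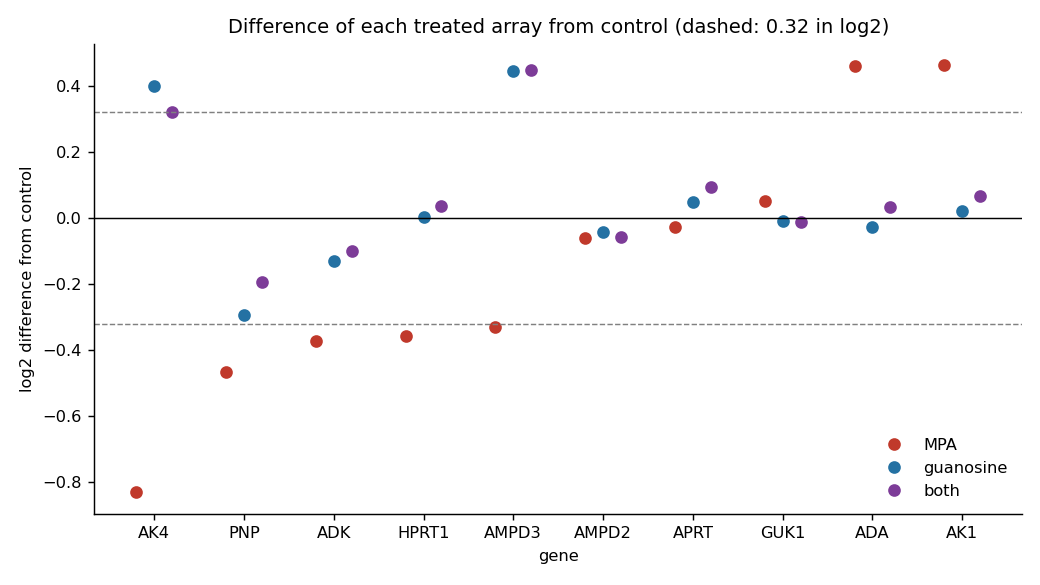
Log2 difference from control (vertical axis) of the MPA, guanosine and combined arrays for each gene, with dashed lines at a log2 difference of 0.32 either way. With MPA the points run from -0.83 for AK4 to 0.46 for AK1, and the guanosine and combined points lie close together for every gene.

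The adenylate kinases lay on opposite sides of control with MPA. AK4, a kinase of the mitochondrial matrix that phosphorylates AMP and a known target of hypoxia-inducible factor, had the widest range of the 10 genes, 1.23 in log2. Its signal was 1017 in the control, 572 with MPA, 1342 on the guanosine array and 1271 on the combined one. The MPA array was thus the lowest, and both arrays with guanosine were above control. MPA against control gave -0.83, or 1.78-fold lower, and 329 of 10951 genes were at or below that value. Guanosine against control gave 0.40, with 170 of 10663 genes at or above it, and both against MPA gave 1.15, or 2.22-fold higher, with 93 of 10956 genes at or above it. A second, dimmer AK4 probe set read 102, 55.4, 132 and 130 in the same order of arrays and gave -0.88, 0.37 and 1.23 for these comparisons, its MPA signal being below the floor.

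AK1, the cytosolic adenylate kinase, read 603 in the control, 831 with MPA, 612 with guanosine and 632 with both. Only the MPA array stood apart. The difference from control with MPA was 0.46 on this probe set and 0.90 on the other, which read 237 in the control and 443 with MPA. With both compounds AK1 was lower than with MPA alone by a log2 value of -0.40, or -0.99 on the other probe set. The 2 probe sets of AK1 thus shared a direction with MPA, as did the 2 of AK4 on the other side.

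The promoter windows shown here set AK4, the member with the widest range, beside AMPD3, which was also lower with MPA and higher with guanosine, and AMPD2, which was level. Each is the 250 bases before the most upstream start that RefSeq lists on GRCh38.p14, written 5′ to 3′, with the motif CACGTG in capitals. CACGTG is the E-box bound by the MYC family, and MYC itself read 791 in the control and 284 with MPA, 827 on the guanosine array and 779 on the combined one.
AK4, chr1:65147302-65147551, plus strand: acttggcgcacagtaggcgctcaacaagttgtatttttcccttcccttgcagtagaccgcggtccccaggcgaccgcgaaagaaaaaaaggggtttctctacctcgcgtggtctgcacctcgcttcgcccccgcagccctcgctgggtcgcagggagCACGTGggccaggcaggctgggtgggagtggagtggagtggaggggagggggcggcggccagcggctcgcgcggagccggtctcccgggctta
AMPD3, chr11:10450441-10450690, plus strand: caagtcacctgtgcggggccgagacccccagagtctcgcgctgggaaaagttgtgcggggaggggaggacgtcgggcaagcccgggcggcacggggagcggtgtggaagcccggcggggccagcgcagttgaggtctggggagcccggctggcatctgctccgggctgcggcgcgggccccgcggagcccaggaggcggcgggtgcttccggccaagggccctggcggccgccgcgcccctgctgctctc
AMPD2, chr1:109619587-109619836, plus strand: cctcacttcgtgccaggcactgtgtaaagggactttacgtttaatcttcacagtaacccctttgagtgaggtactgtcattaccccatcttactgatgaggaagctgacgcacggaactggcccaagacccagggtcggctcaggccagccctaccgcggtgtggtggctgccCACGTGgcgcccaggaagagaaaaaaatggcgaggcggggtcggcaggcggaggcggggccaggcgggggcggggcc
CACGTG, which reads the same on both strands, was present in 2 of the 10 members' windows, those of AK4 and AMPD2, and in 6.46% of 27305 windows of the same length. Its end lay 87 bases before the start of AK4 and 71 before that of AMPD2. The shorter hypoxia-response core was searched on both strands as ACGTG, found in the same 2 members only inside CACGTG and in 18.6% of all windows, and as GCGTG, found in 7 of 10 members and 31.9% of all windows. The AMPD3 window held none of the 3 motifs. AK4, AMPD2 and AMPD3 each have 4 listed starts, and which of them these cells use was not measured, so the matches describe the windows only.

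On the deposited scaling, the guanine arm was lower with MPA at its PNP and HPRT1 steps. With spike-in scaling these differences were -0.18 for PNP and -0.07 for HPRT1. At that setting 46.8% of all genes were higher by at least 0.32 and 6.48% as much lower. After cyclic loess or with array medians aligned, PNP was still lower by at least 0.32 and HPRT1 was not. PNP read 710 in the control, 514 with MPA, 579 with guanosine and 621 with both, so that the control array was the highest of the 4. MPA against control gave -0.47, or 1.38-fold lower. Guanosine against control gave -0.29, just short of 0.32 in size, and 298 of 10663 genes were at or below it. PNP and, by less, ADK and AMPD2 were below control on all 3 treated arrays at their representative probe sets. With both compounds PNP stood at -0.19, ADK at -0.10 and AMPD2 at -0.06.

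HPRT1 read 1984 with MPA and 2541 in the control, while the guanosine array read 2545 and the combined one 2604. The MPA array lay below the other 3, which were within 0.04 of each other in log2. MPA against control gave -0.36 and both against MPA 0.39, which became -0.17 with spike-in scaling, where the median of all genes was -0.57. HPRT1 and PNP each rest on 1 probe set. GUK1 was level, at 2677, 2775, 2657 and 2653 in the order control, MPA, guanosine and both. Its 5 probe sets gave values between -0.07 and 0.11 in MPA against control, and 4 of the 5 were above 0. In log2, IMPDH2, a target of MPA, read 0.36 above control with MPA and -0.81 with guanosine, and the latter was larger in size than the guanosine difference of any of the 10. IMPDH1, the other target, and GMPS, which makes GMP from XMP, are given after their values were seen. IMPDH1 read -0.37 with MPA on its representative probe set, and -0.16 and 0.17 on its 2 others that reached the floor. GMPS read -0.64.

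Of the enzymes that feed AMP, ADK was lower with MPA and APRT was level. ADK read 1439 in the control, 1111 with MPA, 1314 with guanosine and 1342 with both. Its MPA difference was -0.37. A dimmer ADK probe set whose probes may bind other transcripts read 182, 103, 167 and 176 and gave -0.82, so the arrays kept their order while the size differed. APRT read 1664, 1634, 1722 and 1776 in the order control, MPA, guanosine and both, and its MPA difference was -0.03, or 0.05 after cyclic loess. MTAP, which yields the adenine that APRT uses and is known to be deleted with CDKN2A in this line, was below the floor on every array at all 6 of its probe sets, the brightest reading being 49.9. CDKN2A and CDKN2B were also below the floor throughout.

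The deaminases divided. ADA read 304 in the control, 419 with MPA, 298 with guanosine and 311 with both. Its MPA array alone stood high, by 0.46 on both probe sets, the other reading 264 in the control and 363 with MPA. Both against MPA gave -0.43 and -0.33 on these probe sets.

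AMPD3, the AMP deaminase form known from red blood cells, shared the directions of AK4. It read 164 in the control, 130 with MPA and 223 on either array with guanosine. The MPA array was again the lowest and both arrays with guanosine the highest. MPA against control gave -0.33 and guanosine against control 0.44, the latter the highest of the 10 members, with 110 of 10663 genes at or above it. Both against MPA gave 0.78, or 1.71-fold. Of 7 AMPD3 probe sets, 5 reached the floor, and all 5 were lower with MPA (-0.57 to -0.29) and higher with guanosine (0.10 to 0.44).

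AMPD1, which is not among the 10, was below the floor on every array. AMPD2, a further form, stayed level at 1079, 1035, 1048 and 1036 in the order control, MPA, guanosine and both. Its range over the 4 arrays was 0.06, the narrowest of the 10. The 3 dimmer AMPD2 probe sets gave between 0.07 and 0.23 in MPA against control, on the other side of 0 from the main one at -0.06. In guanosine against control the lowest of its 4 probe sets was at -0.09 and none was above 0.01.

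**Figure D3:**
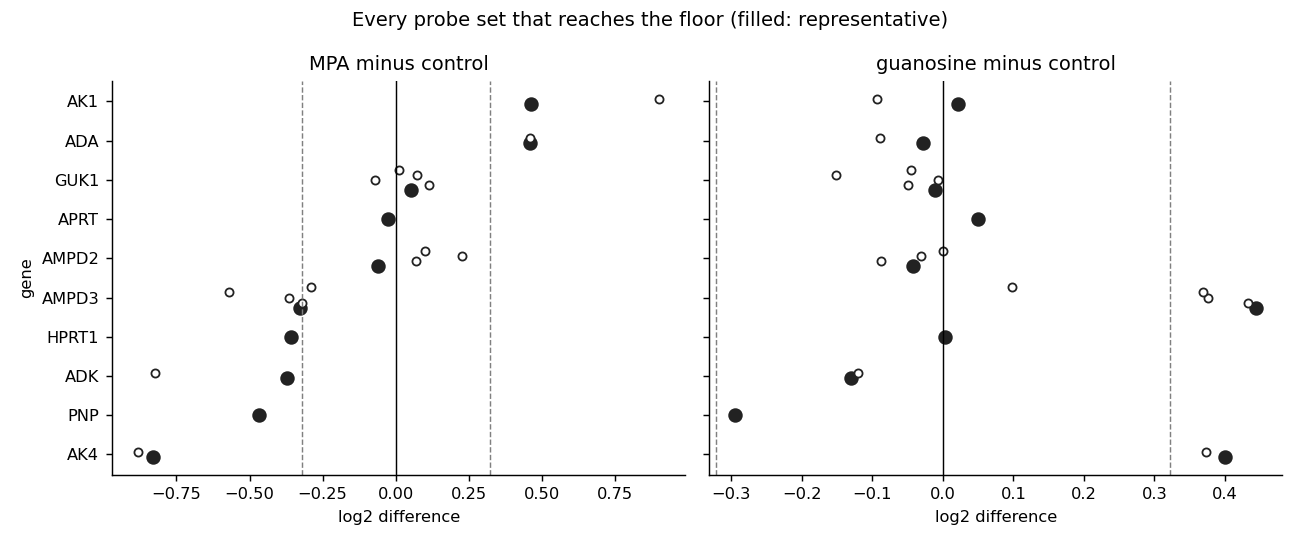
Log2 difference of MPA minus control (left) and guanosine minus control (right) for every probe set that reached the floor, 1 point each, filled for the representative one, with dashed lines at a log2 difference of 0.32 either way. Both AK4 probe sets and the 5 of AMPD3 lie below 0 on the left and above 0 on the right, while both AK1 probe sets and both of ADA lie above the upper dashed line on the left.

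Most of these genes read near control with guanosine alone. AK4 and AMPD3 were higher by 0.32 or more (2 of 10, against 3.58% of 10663 genes), and 0 of 10 were as much lower, against 2.09%, or 5.67% in either direction. None passed 1.5-fold (0 of 10, against 0.497% of genes). The median of the 10 was -0.0042, and all differences lay between -0.29 for PNP and 0.44 for AMPD3. With spike-in scaling AK4 stood at 0.17 and AMPD3 at 0.22, short of 0.32, where the median of all genes was -0.23. PNP and ADK became the 2 members past 0.32, both lower. At that setting a larger share of all genes than of the 10 members was as much lower, and 0.429% of all genes were as much higher. The count of 2 therefore does not set PNP and ADK apart from other genes.

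With both compounds, the 10 genes read much as with guanosine alone. Both against guanosine, which shares no array with MPA against control, placed all 10 between -0.08 (AK4) and 0.10 (PNP). None passed 0.32 in either direction (0 of 10, against 0.83% of 10599 genes), and the spread of all genes in that comparison was an SD of 0.098. The difference of these differences was 0.75 for AK4, 0.57 for PNP, 0.40 for ADK, 0.39 for HPRT1 and 0.33 for AMPD3. For AK1 it was -0.42 and for ADA -0.40, and for APRT, GUK1 and AMPD2 it lay between -0.05 and 0.07. The last 3 genes were those level with MPA alone, which follows from the arithmetic, since both against guanosine was small for all 10.

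**Figure D4:**
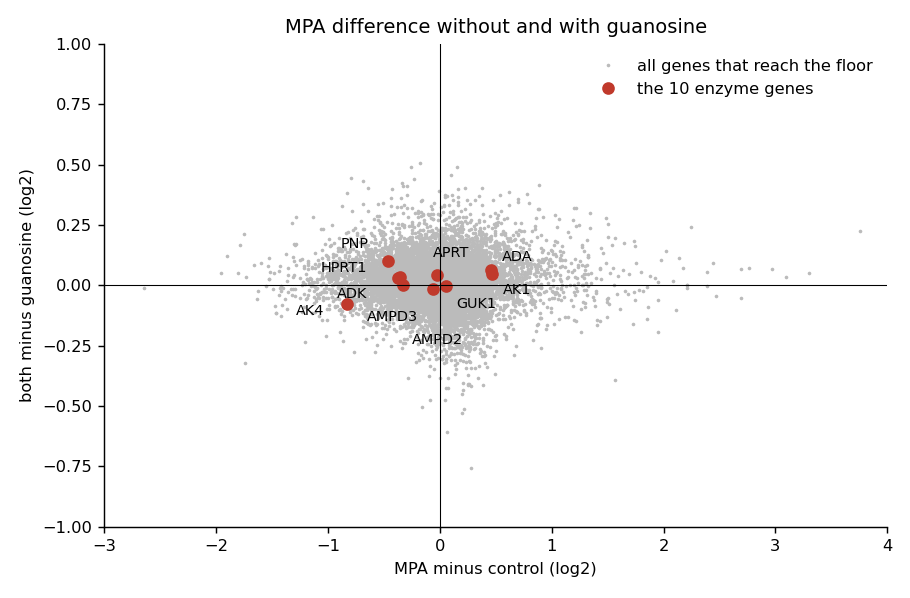
Log2 difference of MPA minus control (horizontal axis) against both compounds minus guanosine (vertical axis) for every gene that reached the floor (grey) and the 10 enzyme genes (red). The 10 spread from -0.83 to 0.46 along the horizontal axis and only from -0.08 to 0.10 along the vertical one.

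Both against MPA, which asks what added guanosine did in the presence of MPA, shares the MPA array with the first comparison. AK4, AMPD3 and HPRT1 were higher by at least 0.32 (3 of 10, against 21.8% of 10956 genes) and AK1 and ADA as much lower (2 of 10, against 16.0% of genes). In either direction that is 5 of 10, against 37.8% of genes. With spike-in scaling the split of 3 higher and 2 lower became 1 and 5, where 2.46% of all genes were higher and 74.1% lower. AK4 was then still higher, at 0.59, and AK1 and ADA lower. PNP and ADK were higher by 0.27 each, which became -0.29 for both with spike-in scaling. Of the 10, AK4 and AMPD3 passed 1.5-fold (2 of 10, against 13.6% of genes in either direction).

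Both against control shares its control array with the single-compound comparisons. AMPD3 was higher by 0.45 and was the only member past 0.32 (1 of 10, against 6.62% of 10672 genes). AK4 stood at 0.32, just short of the line before rounding, and passed it when probe sets were combined by their median. With spike-in scaling AMPD3 stood at 0.17. PNP, ADK and AMPD2 became the members past 0.32, all lower, where 34.6% of all genes were as much lower and 0.336% higher. The median of the 10 was 0.03.

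Other genes of purine salvage and interconversion lay on both sides of control with MPA. Of 35 listed, 26 were measured and 19 reached the floor in MPA against control, where 3 were higher by at least 0.32 (against 14.8% of all genes) and 3 as much lower (against 18.6%), with a median of 0.01. Genes of PRPP supply, the sugar donor of HPRT1 and APRT, had a median of -0.29, and 2 of the 4, PRPSAP1 and PRPS1 (-0.33), were lower by at least 0.32, while PRPS2 was at -0.25 and PRPSAP2 level at -0.01. PRPSAP1, a regulatory partner of PRPP synthetase, led them, reading 792 in the control and 492 with MPA (-0.69). DCK, the deoxycytidine kinase that also phosphorylates purine deoxynucleosides, read 718 and 458 (-0.65), and its 4 other probe sets gave between -0.65 and -0.31. Both read higher with the compounds combined than with MPA alone, PRPSAP1 by 0.76 and DCK by 0.59.

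Of the 6 listed nucleoside diphosphate kinases, which pass phosphate between nucleotides, NME1, NME2 and NME7 had no probe set under their symbol alone. Of the 3 measured, 2 were higher by at least 0.32 with MPA, against 14.8% of all genes, and NME4 was level at 0.01. NME6 read 229 in the control and 366 with MPA (0.68) and NME3 215 and 334 (0.64). Each stands on 1 probe set, and in both against MPA they gave -0.71 and -0.37. Among deaminases outside the 10, LACC1 was at 0.56 and MAPDA at 0.16. In the remaining groups the ends were ADSS1 at 0.30 and ADSL at 0.07 of the adenylosuccinate steps, AK3 at 0.24 and AK5 at 0.04 of the other adenylate kinases, and ITPA at 0.17, with SAMHD1 near 0, of the clean-up enzymes. In guanosine against control, 0 of 19 passed 0.32 in either direction, against 5.67% of all genes.

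**Figure D5:**
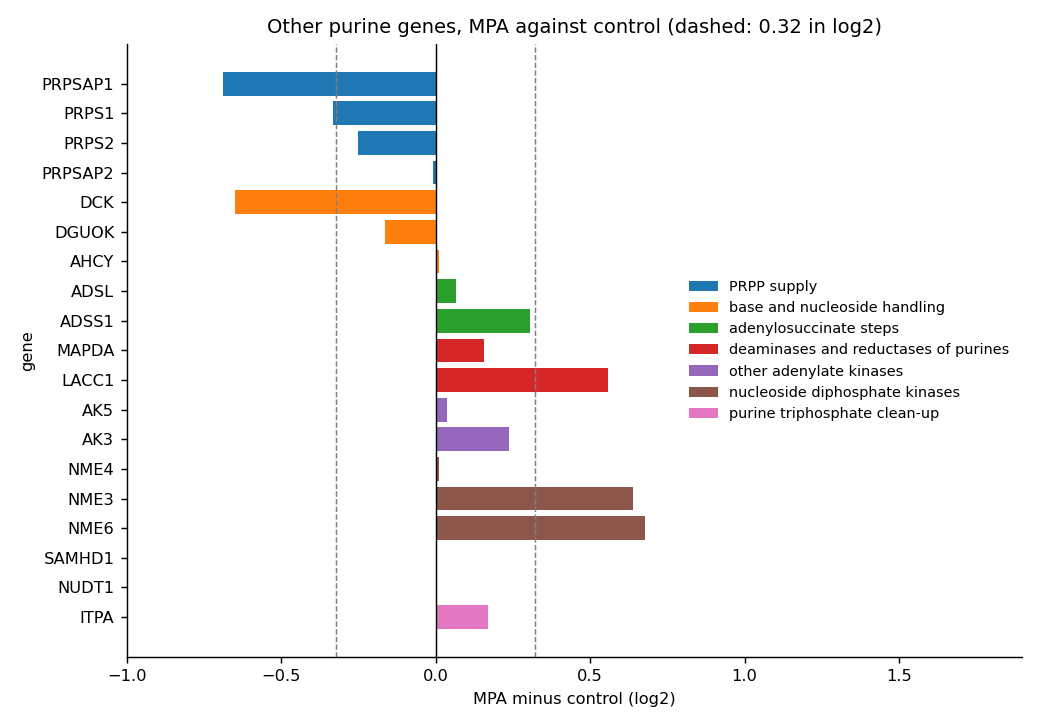
Log2 difference of MPA minus control (horizontal axis) for the 19 other purine genes that reached the floor, 1 bar per gene, coloured by group, with dashed lines at a log2 difference of 0.32 either way. PRPSAP1 (-0.69) and DCK (-0.65) reach furthest below 0 and NME6 (0.68) and NME3 (0.64) furthest above.

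The genes whose pattern was most like that of AK4 were sought among 11009 other genes, as the smallest Euclidean distance between log2 values over the 4 arrays after each gene's mean was removed. HOMER1, a scaffold protein gene, was nearest at 0.079, reading 169 in the control, 88.3 with MPA, 216 with guanosine and 208 with both. SNORA33, a small nucleolar RNA gene, followed at 0.082 and MEST at 0.11. With 4 arrays such closeness is a description of the pattern only.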

How the data were processed

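U87MG RNA from 4 conditions was read on 4 arrays, 1 per condition, grouped by the treatment label. Per the labels, the authors deposited 1 intensity per probe set on a linear scale, made by RMA. The software and its settings are not stated in the labels. RMA brings arrays to a common distribution, which hides changes in total mRNA. Precision is limited by having 4 arrays.

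Values were taken to log2. Of 49395 probe sets, 44988 non-control ones had 1 symbol in the platform gene table, 1832 listed probe sets had several and 2569 were not listed. All 10 member symbols matched RefSeq by Entrez ID. A gene was read from its brightest probe set by mean log2, with _x_at sets used only where a gene had no other. A gene entered a comparison when its brighter array reached the floor of 63.0. No test was possible without replicates, so members past a log2 difference of 0.32 (25%) and past 1.5-fold were counted beside all genes. The counting was tested on simulated data. Promoter windows came from RefSeq's GRCh38.p14 table, and no gene coordinates are given.

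All members are named, and of each other purine group the genes past 1.5-fold, or else its highest and lowest with MPA. The members and lists were chosen with earlier results of these data known. Alternatives were other probe set rules and floors, cyclic loess (limma 3.58.1 in R 4.3.3, 3 iterations), aligned array medians, and spike-in scaling, the last chosen after seeing the data. Python 3.11.15 and pandas 2.3.3 were used.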

Additional observations from a re-analysis of the deposited data

Results flagged for a closer look

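A probe set listed under both AK4 and its pseudogene AK4P1 was left out of the 10 genes, since its signal cannot be assigned to either, and drew attention as a signal outside the comparisons that stood above control. It read 266 in the control, 136 with MPA, 324 with guanosine and 329 with both. Guanosine against control gave 0.28 and MPA against control -0.97, beside 0.40 and -0.83 for the main AK4 probe set. Both against MPA gave 1.27 and both against guanosine 0.02.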

How the results depend on the processing

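Every count of members past 0.32 in log2 and every median of the members was recomputed under 8 other settings and spike-in scaling. In MPA against control, 7 members passed as deposited, against 33.4% of all genes, and 4 after cyclic loess or with spike-in scaling. After cyclic loess 17.1% of all genes were higher by 0.32 or more and 15.8% lower. With spike-in scaling these shares were 46.8% and 6.48%. The members' median of -0.19 became -0.060 with the floor at the 75th percentile and -0.34 for members whose probe sets had 1 direction. With spike-in scaling it was 0.089. In guanosine against control, the higher floor, which AMPD3 did not reach, left 1 member higher by 0.32, against 3.24% of all genes. Spike-in scaling moved the median of the members to -0.23. In both against MPA, the median of 0.20 became 0.096 after cyclic loess and -0.37 with spike-in scaling. In both against control, the single member, AMPD3, became 2 with either median of probe sets, where 3.71% or 4.07% of all genes were as much higher. With the higher floor it became 0, against 3.85% of all genes higher and 1.46% lower. With spike-in scaling AMPD3 fell short of 0.32, at 0.17. PNP, ADK and AMPD2 were then the 3 members past it, all lower, against 34.6% of all genes, and the median of the members was -0.24. Of single members past 0.32, HPRT1 in both against MPA alone changed sign under these settings, with spike-in scaling, to -0.17. Differences under 0.32 changed sign more often, among them in the same comparison and scaling PNP and ADK (both -0.29), APRT (-0.44) and AMPD2 (-0.56), and AMPD2 in MPA against control with the median of probe sets (0.07). Spike-in scaling adds 1 constant per array, and the fewer members under the higher floor follow from fewer genes compared. The causes of the other changes were not tested. Of 433 recomputed member differences, 376 moved by less than 0.098, the SD over all genes of both against guanosine, and 56 by more without a called value changing sign. Without replicates no culture could be left out. No paired analysis was possible because each condition has 1 array. Signals of AMPD3 lay nearest the floor among the 10.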
